A study of Homo sapiens with 44 samples.

Results

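The TNF ligand and receptor superfamily was described here in Ccd-18Co, a human colon fibroblast line, with 40 members among the 40663 gene symbols of the count table. Members were the symbols that start with TNFSF or TNFRSF and a digit, together with CD40, FAS, LTB and LTBR. They comprised 12 ligands, 6 receptors with a death domain, 4 decoy receptors, 14 other receptors and 4 antisense, divergent or readthrough genes. TNF itself carries no such symbol and was counted in a separate list of superfamily genes. The study asked which genes each of 10 cytokines linked to Crohn's disease changes in intestinal stromal cells.

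Ligands of the TNF superfamily are mostly membrane proteins that act as trimers and cluster their receptors on a neighbouring or the same cell. Receptors with a death domain can assemble caspase-activating complexes, receptors that bind TRAF adaptors activate NF-kappaB, and decoy receptors bind a ligand without passing on the death signal. In the intestine, fibroblasts are known to exchange such signals with lymphocytes and macrophages.

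The libraries were bulk RNA-seq of 11 groups, each with 4 replicates, 44 libraries in all. Cells of every group were kept without serum for 72 h. One group then stayed unstimulated, and the others received 1 cytokine for 24 h, with IL1B at 0.1 ng/ml (a lower dose is named elsewhere by the study) and IL6, IL13, IL17A, IL22, IFNA, IFNG, TGFB1, TNF or OSM at 10 ng/ml. All libraries come from 1 cell line, and the labels do not say whether replicates were separate cultures, so p-values measure the spread between these libraries, which may be technical. Levels are CPM, the estimated counts scaled to 1000000 per library after TMM normalisation. Because the RNA is from bulk cells, fewer cells carrying a transcript and less transcript per cell cannot be told apart.

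Library totals ran from 742173 to 2213424 estimated counts (median 1480883), so 3 counts, taken here as the limit of measurement, correspond to 1.39 to 3.85 CPM depending on the library. All 9 fibroblast markers (COL1A1, COL1A2, COL3A1, DCN, LUM, PDGFRA, PDGFRB, THY1, VIM) were detected, with summed levels from 17240 to 52360 CPM across libraries. The 6 leukocyte markers summed to 0 to 4.01 CPM in any library, with CD3E and MS4A1 at 0 throughout and group means of 0.467 CPM after IFNA, 0.993 CPM after TNF and 1.22 CPM in unstimulated cells. Endothelial markers summed to at most 2.65 CPM and muscle markers (DES, MYH11) to at most 14.7 CPM, while the 4 epithelial markers reached 26.6 CPM through VIL1, with EPCAM at no more than 0.888 CPM.

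Unstimulated fibroblasts had 1 dominant member. TNFRSF11B encodes osteoprotegerin, the secreted decoy of RANKL and TRAIL, and per kb of transcript it lay at 750.5 CPM. The next were TNFRSF12A, the TWEAK receptor, at 35.2 CPM per kb and the death receptor FAS at 30.5 CPM per kb, and these neighbours overlapped between libraries. The decoy TNFRSF10D (7.17 CPM per kb), TNFRSF1A (5.75), TNFRSF21 (5.05), TNFRSF19 (4.17) and LTBR (3.98) followed, and TNFRSF10B (2.51), TNFSF13B (2.26), TNFRSF10A-DT (1.90) and TNFRSF10A stood below them. TNFRSF11B made up 87.7% ± 2.8 (SD, n = 4) of the summed length-scaled level of all members in unstimulated cells. In the other groups its mean share ran from 77.5% after OSM to 93.2% after IL1B. TNFSF13B was the ligand with the highest unstimulated level.

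**Figure D1:**
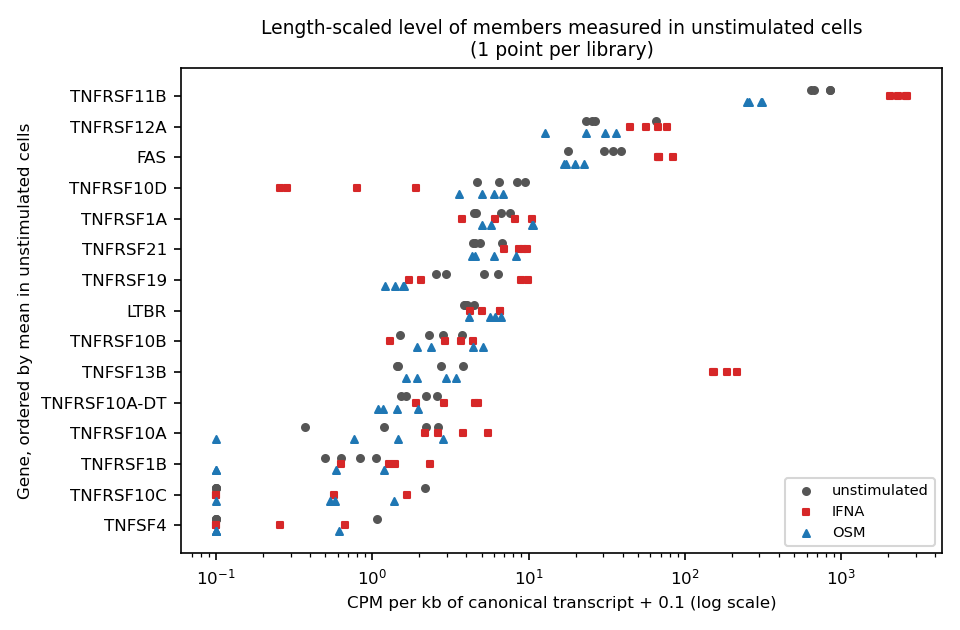
Level of the 15 members measured in unstimulated cells, as CPM per kb of canonical transcript plus 0.1 on a log axis, 1 point per library (grey circles unstimulated, red squares IFNA, blue triangles OSM). TNFRSF11B lies far to the right of every other member in all 3 groups, and TNFSF13B and TNFRSF10D are the members whose red squares lie farthest from their grey circles.

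Of the 40 members, 14 had enough counts to be tested: 3 ligands, 5 death domain receptors, 2 decoys, 3 other receptors and TNFRSF10A-DT, a divergent transcript beside TNFRSF10A. TNFSF10 and TNFSF15 entered the test through the groups in which they were high. With edgeR's quasi-likelihood test and Benjamini-Hochberg adjustment over all 9513 genes tested, 8 of the 14 passed at an adjusted p under 0.05 against unstimulated cells for at least 1 cytokine, beside 27.4% of all genes tested. That was 15 of 140 member and cytokine combinations, beside 5.45% of the combinations of all genes. A test of any difference among the 11 groups called 8 of 14, beside 35.7% of all genes. TNFSF10 and TNFSF15 are among the 8 in both counts, and without them 6 of 12 passed in each.

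In this fit more members passed after IFNA than after any other cytokine, while with DESeq2 and with all genes with any count 6 passed after IFNA and 6 after IFNG. The share of all genes called was not taken for those alternative fits. After IFNA, 5 members rose (FAS, TNFRSF11B, TNFSF10, TNFSF13B, TNFSF15) and 1 fell (TNFRSF10D) of the 14. TNFSF10 and TNFSF15 entered the test through groups in which they were high. Counts that hold them therefore cannot be set against the share of all genes called. Of all genes tested, 9.85% were called after IFNA in the main fit, 4.99% up and 4.86% down. This background is given beside each count of calls from the main fit that follows. IFNG raised 3 members, TNFRSF11B, TNFSF10 and TNFSF13B (background 10.6%, 5.52% up). TNF raised 3 members, TNFRSF11B, TNFRSF12A and TNFSF15 (background 11.5%, 5.37% up). Without TNFSF10 and TNFSF15, those left were FAS, TNFRSF11B and TNFSF13B after IFNA, TNFRSF11B and TNFSF13B after IFNG, and TNFRSF11B and TNFRSF12A after TNF. TNFRSF11B was the 1 member that passed after IL1B, where it rose (background 7.38%, 3.46% up), and the 1 that passed after OSM, where it fell (background 3.96%, 2.54% down). TNFRSF19 was the 1 member that passed after TGFB1, where it fell (background 5.69%, 3.08% down).

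No member passed after IL6, IL13, IL17A or IL22 in the main edgeR fit or with DESeq2. The background of the main fit was 0.0105%, 3.93%, 1.52% and 0%. With all genes with any count, 1 member passed after IL17A. At an unadjusted p under 0.05 the main fit had 0, 1, 3 and 3 members after IL6, IL13, IL17A and IL22. The share of all genes at an unadjusted p under 0.05 was not taken. Counts at that threshold, here and below, therefore cannot be set against a background. At an absolute log2 fold change above 1.5, the study's own threshold, 5 members were left after IFNA (background 3.98%), 2 after IFNG (3.53%), 1 after TGFB1 (1.7%), 1 after TNF (4.19%), and 0 after IL1B (2.78%) and OSM (1.3%). The IFNA count holds TNFSF10 and TNFSF15, the IFNG count holds TNFSF10, and the 1 member after TNF was TNFSF15. These counts therefore cannot be set against their background.

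**Figure D2:**
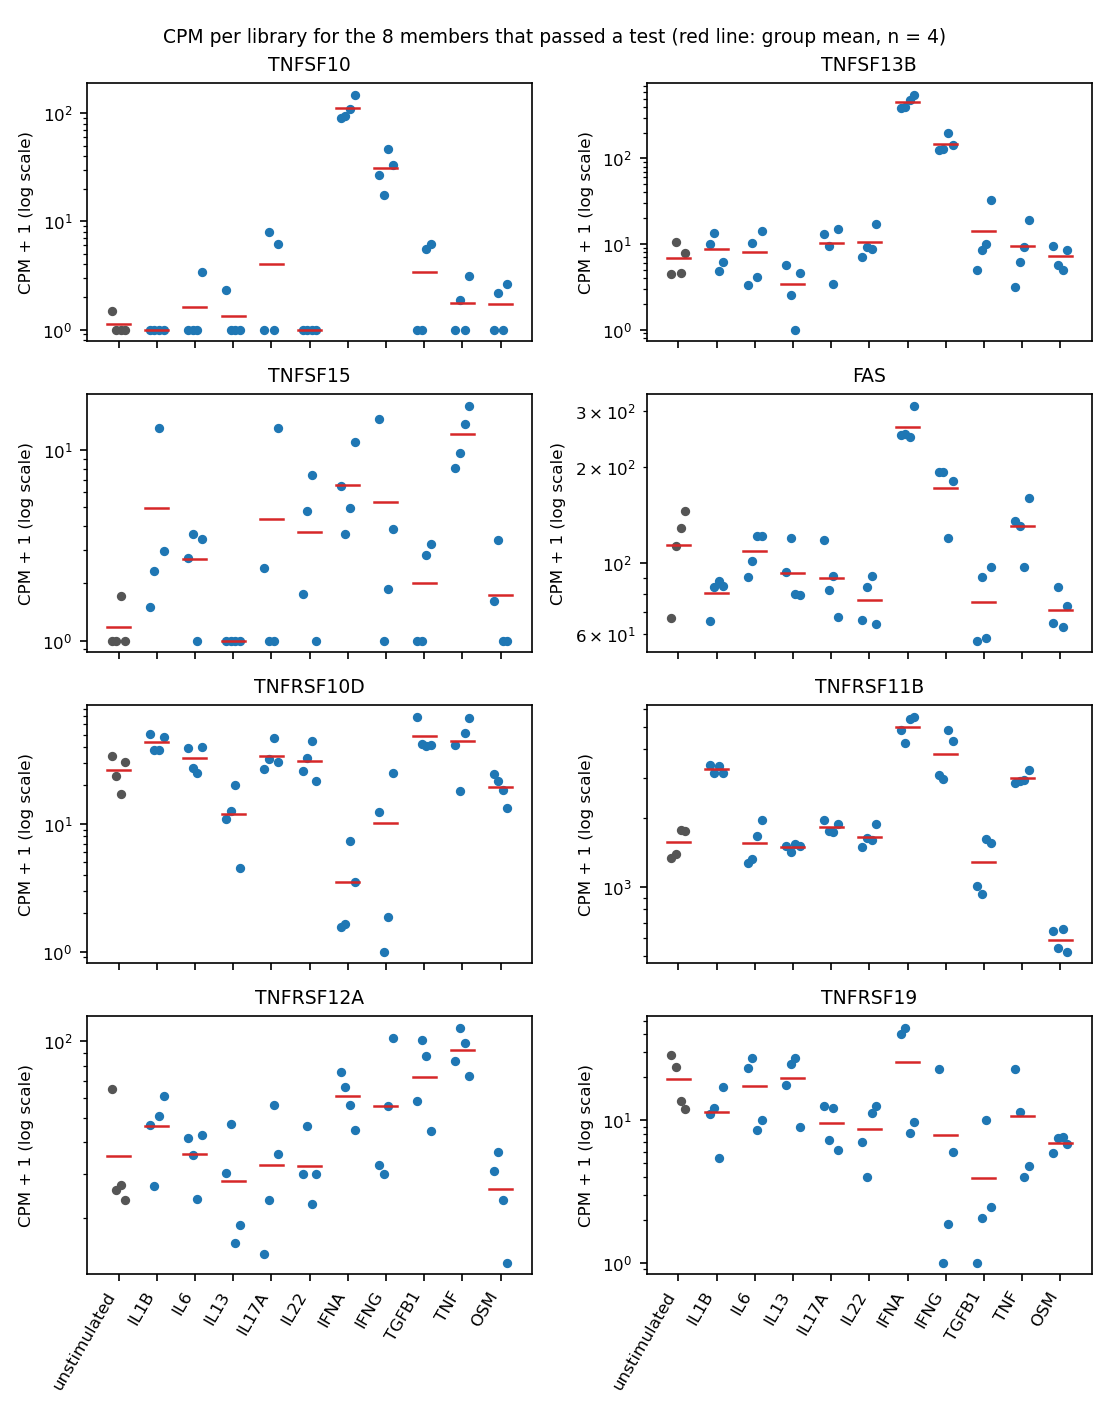
CPM plus 1 on a log axis for the 8 members that passed a test, 1 point per library in each of 11 groups (grey unstimulated, blue cytokines), with a red line at the group mean (n = 4). TNFSF10 and TNFSF13B stand far above the other groups after IFNA and IFNG, TNFRSF10D is lowest after IFNA, and TNFRSF11B is raised by IL1B, IFNA, IFNG and TNF and lowest after OSM.

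**Figure D3:**
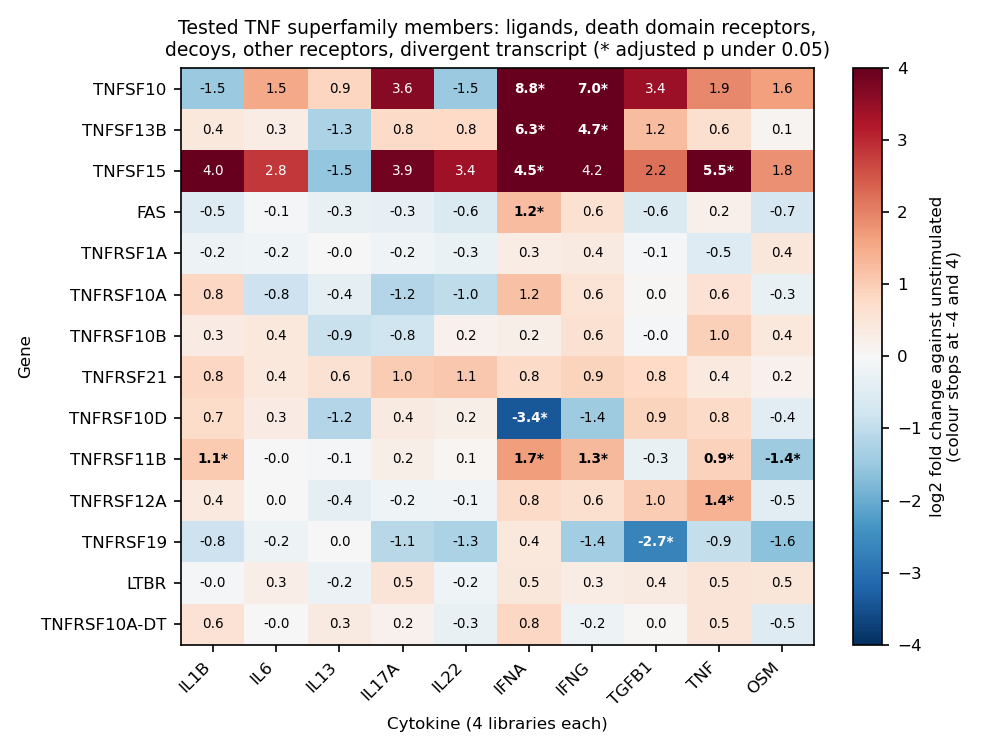
Fitted log2 fold change against unstimulated cells for the 14 tested members (rows) and 10 cytokines (columns), with an asterisk where the adjusted p was under 0.05. Fitted values of TNFSF10 and TNFSF15 are no bounds, because their unstimulated libraries held at most 1 count; the IL6, IL13, IL17A and IL22 columns hold no asterisk.

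Among the ligands, TNFSF10, TNFSF13B and TNFSF15 rose after at least 1 cytokine. TNFSF10 encodes TRAIL, which triggers apoptosis through TNFRSF10A and TNFRSF10B, and TNFSF13B encodes BAFF, a survival factor of B cells. Both are known interferon-induced genes. Their promoters are printed because the ISRE is a known element of interferon-induced genes, searched here on both strands as TTTC, any 2 bases, and TTTC again. RefSeq promoter windows (GRCh38.p14, 250 bases before to 50 after the start) were found for 25 of the 40 members, with 33 windows in all. The ISRE form occurred in 3.57% of 34943 windows of all genes, and among members in those of TNFRSF1B, TNFSF10, TNFSF13B, TNFSF14 and TNFSF9. The windows are on chr3:172523381-172523680 (minus strand) for TNFSF10 and chr13:108269468-108269767 (plus strand) for TNFSF13B. They are written 5′ to 3′ on the gene's strand with the match in capitals.
TNFSF10: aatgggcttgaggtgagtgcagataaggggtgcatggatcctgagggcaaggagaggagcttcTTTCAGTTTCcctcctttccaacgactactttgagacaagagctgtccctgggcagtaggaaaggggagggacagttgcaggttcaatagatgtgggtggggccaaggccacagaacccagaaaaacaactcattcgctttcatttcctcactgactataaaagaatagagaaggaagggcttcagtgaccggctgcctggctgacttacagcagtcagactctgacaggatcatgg
TNFSF13B: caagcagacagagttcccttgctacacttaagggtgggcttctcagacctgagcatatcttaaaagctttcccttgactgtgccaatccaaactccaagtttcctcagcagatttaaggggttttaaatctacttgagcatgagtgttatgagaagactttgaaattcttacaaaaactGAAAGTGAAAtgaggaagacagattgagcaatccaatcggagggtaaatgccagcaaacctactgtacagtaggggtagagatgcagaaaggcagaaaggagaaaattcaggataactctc
The TNFSF10 match lies 187 to 178 bases before the start and the TNFSF13B match, on the other strand, 71 to 62 bases before it. TNFSF13B has a second window that overlaps the printed one, in which the same match lies 19 to 28 bases after the start. The kappaB form, GGGA, any 2 bases and TTCC (1.61% of all windows) was found in the LTB and TNFRSF9 windows, and the GAS form TTCNNNGAA (7.66%) in those of LTB, TNFRSF9 and TNFSF11. These matches are letters in the windows, and binding was not measured.

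TNFSF10 was nearly silent without interferon. It held 1 estimated count in unstimulated replicate 1 and 0 in the other 3, and 0 in every library after IL1B and IL22. After IFNA it reached 90.4, 93.5, 108 and 148 CPM in replicates 1 to 4. After IFNG the libraries held 25.6, 16.6, 46.0 and 32.0 CPM. Every interferon library thus lay above every library of the other 9 groups, the highest of which was 7.02 CPM after IL17A. Against the limit of 3 counts per unstimulated library, TNFSF10 was at least 56.2-fold higher after IFNA (adjusted p = 6.44e-08) and at least 15.4-fold higher after IFNG (adjusted p = 1.35e-05). The 4 IFNA libraries all lay above the 4 IFNG libraries, but the direct difference did not pass (log2 fold change 1.87 ± 0.65 SE, adjusted p = 0.063). TNF against IFNG passed (log2 fold change -5.03 ± 0.91 SE, adjusted p = 1.32e-04), with 0, 1, 0 and 4 counts in the TNF libraries. Without TNF replicate 4 the other TNF libraries held at most 1 count, so no fold is given, and the call held (adjusted p = 2.61e-04).

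TNFSF13B was measurable before stimulation, at 3.43, 9.48, 3.52 and 6.83 CPM in the unstimulated replicates. IFNA brought it to 387, 397, 481 and 552 CPM, and IFNG to 126, 126, 194 and 142 CPM. No IFNA or IFNG library overlapped any library of the other groups, where the highest value was 31.6 CPM in TGFB1 replicate 4. The log2 fold change was 6.31 ± 0.52 SE after IFNA (79.1-fold, adjusted p = 4.24e-13) and 4.68 ± 0.51 SE after IFNG (25.6-fold, adjusted p = 1.60e-09). The level after IFNA was 3.09-fold that after IFNG (log2 fold change 1.63 ± 0.39 SE, adjusted p = 0.00399), with 4 of 4 IFNA libraries above all IFNG libraries. In length-scaled level TNFSF13B then stood at 177 CPM per kb after IFNA and 57.1 after IFNG, against 58.6 and 16.0 CPM per kb for TNFSF10. IL13 had the lowest TNFSF13B mean (libraries at 4.65, 1.54, 0 and 3.55 CPM), and IL13 against TGFB1 gave a log2 fold change of -2.49 ± 0.66 SE (adjusted p = 0.00824). That difference was -1.49 (adjusted p = 0.184) without TGFB1 replicate 4 and -3.12 without IL13 replicate 1.

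TNFSF15 encodes TL1A, a ligand of TNFRSF25 known as a susceptibility gene of Crohn's disease. It held 1 estimated count in unstimulated replicate 3 and 0 in the other unstimulated libraries. After TNF the libraries held 7.06, 8.61, 12.8 and 16.1 CPM, all above the unstimulated ones and at least 5.69-fold higher (adjusted p = 0.00755). After IFNA they held 5.51, 2.63, 3.97 and 9.96 CPM, at least 2.82-fold higher (adjusted p = 0.0397), and this call was lost without any 1 of unstimulated replicates 1, 2 and 4 or IFNA replicates 1, 3 and 4 (adjusted p from 0.0506 to 0.108). Single libraries were also high in groups that did not pass, with 12.1 CPM in IL1B replicate 3, 12.1 CPM in IL17A replicate 4 and 13.6 CPM in IFNG replicate 1. TNF against IL1B gave a log2 fold change of 1.49 ± 1.04 SE (adjusted p = 0.603).

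The other 9 ligands did not reach the test. TNFSF8 was at 0 in all libraries. LTB, TNFSF9, TNFSF11 and TNFSF13 never exceeded 3 counts in a library, and TNFSF4, TNFSF12, TNFSF14 and TNFSF18 exceeded 3 counts in 1 to 3 groups each with at most 10 counts in a library. The 10 counts belonged to TNFSF18, which encodes the GITR ligand, in TGFB1 replicate 2, and the other TGFB1 libraries held 0, 0 and 1. TNFSF15's receptor TNFRSF25 never exceeded 2 counts.

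FAS, which triggers apoptosis when bound by FAS ligand, was the death domain receptor that passed a test against unstimulated cells. Unstimulated libraries held 66.1, 112, 128 and 145 CPM. After IFNA they held 251, 253, 247 and 310 CPM, all above the unstimulated range. The log2 fold change was 1.24 ± 0.21 SE (2.36-fold, adjusted p = 1.95e-05). After IFNG, FAS lay at 192, 192, 119 and 179 CPM, overlapping the unstimulated range (log2 fold change 0.60 ± 0.21 SE, adjusted p = 0.0546). The direct difference between IFNA and IFNG passed narrowly (log2 fold change 0.64 ± 0.21 SE, adjusted p = 0.0396) and was lost when any 1 of 7 of the 8 libraries was left out, with adjusted p up to 0.20.

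The lowest FAS mean, 70.4 ± 9.57 CPM (SD, n = 4), was after OSM (log2 fold change -0.67 ± 0.21 SE, adjusted p = 0.0622). Without unstimulated replicate 1, which was the lowest FAS library of its group, FAS was called after IL1B, TGFB1 and OSM as well. FAS shares 387 exonic bases with ACTA2, the smooth muscle actin gene on the opposite strand, and 166 with STAMBPL1 on the same strand, so reads in these stretches cannot be assigned with certainty. ACTA2 lay at 524 ± 273 CPM in unstimulated cells and 612 ± 305 CPM after IFNA (SD, n = 4) (log2 fold change 0.22 ± 0.37 SE, adjusted p = 0.811), and STAMBPL1 at 66.6 ± 32.8 and 75.7 ± 13.6 CPM (log2 fold change 0.19 ± 0.29 SE, adjusted p = 0.792). After IFNG, ACTA2 fell (log2 fold change -1.75 ± 0.39 SE, adjusted p = 0.00131) and STAMBPL1 rose (log2 fold change 1.09 ± 0.29 SE, adjusted p = 0.00839). The part of these overlaps in the FAS values was not tested.

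The other death domain receptors tested did not pass for any cytokine. TNFRSF1A, the main TNF receptor of non-immune cells, had group means from 8.85 CPM after TNF to 17.1 CPM after OSM. Its log2 fold changes ran from -0.50 to 0.44 (SE 0.52 to 0.54, lowest adjusted p 0.644). The TRAIL receptors TNFRSF10A and TNFRSF10B had group means from 1.73 to 9.20 CPM and from 5.37 to 19.9 CPM. Their highest means were after IFNA and after TNF respectively, and their lowest adjusted p was 0.519 and 0.253. The SE of their log2 fold changes was 0.92 to 1.04 and 0.51 to 0.55. TNFRSF21, death receptor 6, had its lowest mean, 18.1 ± 3.91 CPM (SD, n = 4), in unstimulated cells and its highest, 38.0 ± 6.70 CPM, after IL22 (log2 fold change 1.06 ± 0.35 SE, adjusted p = 0.206). Its lowest adjusted p was 0.0967, after IFNG, and it passed there without IFNG replicate 1.

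The 2 decoys tested were called in opposite directions after IFNA. Mean levels of both lay above the unstimulated mean after IL1B and TNF and below it after OSM, where TNFRSF10D did not pass. TNFRSF10D binds TRAIL with a truncated death domain and so does not pass on its death signal. Unstimulated libraries held 33.3, 22.6, 16.2 and 29.4 CPM. After IFNA they held 0.551, 0.658, 6.36 and 2.49 CPM, which is 1, 1, 8 and 4 counts. All 4 IFNA libraries lay below every unstimulated library, with a log2 fold change of -3.40 ± 0.63 SE (10.6-fold lower, adjusted p = 8.93e-05), and -4.29 without IFNA replicate 3. IFNG libraries were split, at 11.3, 0, 0.867 and 24.2 CPM, and did not pass (log2 fold change -1.43 ± 0.53 SE, adjusted p = 0.0753). TNFRSF10A, TNFRSF10B, TNFRSF10C and TNFRSF10D are related genes side by side on chromosome 8, and kallisto divides reads that fit several transcripts by estimation, so counts of such near copies are uncertain.

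TNFRSF10D was highest after TGFB1 (67.8, 41.5, 39.9 and 40.4 CPM) and TNF (40.3, 17.2, 50.3 and 65.9 CPM). IL1B stood close to TNF, with means of 42.5 and 43.4 CPM. All IL1B libraries (36.85 to 49.45 CPM) lay above every unstimulated library. None of these cytokines passed against unstimulated cells. TNF against IFNG passed (log2 fold change 2.21 ± 0.53 SE, adjusted p = 0.00362), although TNF replicate 2 lay within the IFNG range and the call was lost in a fit of those 8 libraries alone (adjusted p = 0.15). Without IFNG replicate 4 the log2 fold change was 3.35. IL13 libraries held 9.96, 11.6, 19.0 and 3.55 CPM, all below every TGFB1 library (log2 fold change -2.06 ± 0.52 SE, adjusted p = 0.00459).

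TNFRSF11B was the member with the most calls. Unstimulated libraries held 1334, 1398, 1770 and 1764 CPM. IL1B raised it to 3404, 3159, 3361 and 3158 CPM (log2 fold change 1.06 ± 0.16 SE, adjusted p = 5.97e-06). TNF raised it to 2850, 2896, 2930 and 3237 CPM (log2 fold change 0.93 ± 0.16 SE, adjusted p = 5.34e-05). Every library of these 2 groups lay above every unstimulated library, and TNF and IL1B did not differ detectably from each other (log2 fold change -0.14 ± 0.16 SE, adjusted p = 0.813). IFNA libraries were higher still, at 4846, 4263, 5409 and 5535 CPM (log2 fold change 1.68 ± 0.17 SE, 3.20-fold, adjusted p = 7.48e-11). IFNG libraries held 3098, 2967, 4830 and 4359 CPM (log2 fold change 1.28 ± 0.16 SE, adjusted p = 8.89e-08), and IFNA against IFNG did not pass (log2 fold change 0.39 ± 0.16 SE, adjusted p = 0.131). OSM was the cytokine that lowered it, to 639, 540, 654 and 521 CPM, below every library of every other group. That fall was 1.41 ± 0.17 SE on the log2 scale (2.66-fold lower, adjusted p = 4.44e-08). RANKL (TNFSF11), the ligand that osteoprotegerin sequesters, held 1 count in each of 2 libraries, and its signalling receptor RANK (TNFRSF11A) was at 0 in all 44.

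Among the other receptors, TNFRSF12A, the small receptor of TWEAK, rose after TNF. Unstimulated libraries held 64.1, 24.8, 26.0 and 22.5 CPM, with replicate 1 far above the rest. After TNF they held 82.6, 112, 97.5 and 72.3 CPM, all above the unstimulated range (log2 fold change 1.38 ± 0.39 SE, 2.60-fold, adjusted p = 0.0127). The call was lost without unstimulated replicate 2 or 4 (adjusted p = 0.0568 and 0.056), and without replicate 1 the log2 fold change was 1.89. TGFB1 libraries ranged from 43.3 to 99.96 CPM (log2 fold change 1.03 ± 0.39 SE, adjusted p = 0.115), and passed without unstimulated replicate 1. Direct comparison of IL13 with TGFB1 passed (log2 fold change -1.40 ± 0.40 SE, adjusted p = 0.0149), with 3 of 4 IL13 libraries below every TGFB1 library, and was lost without IL13 replicate 3 or 4 or TGFB1 replicate 2. Its ligand TWEAK (TNFSF12) exceeded 3 counts in 1 IL6 and 1 TGFB1 library.

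TNFRSF19, known as TROY and expressed in several stem and stromal cells, was low and uneven. Unstimulated libraries held 27.9, 22.6, 12.7 and 10.9 CPM, and TGFB1 libraries 0, 1.06, 9.07 and 1.47 CPM. All TGFB1 libraries lay below the unstimulated range (log2 fold change -2.68 ± 0.82 SE, adjusted p = 0.0407). The call was lost without any 1 of unstimulated replicates 1 and 2 or TGFB1 replicates 1, 2 and 4 (adjusted p from 0.086 to 0.15), and without TGFB1 replicate 3 the log2 fold change was -4.32. IL13 against TGFB1 gave a log2 fold change of 2.70 ± 0.82 SE (adjusted p = 0.0222), lost without any 1 of IL13 replicates 2 and 3 or TGFB1 replicates 1, 2 and 4, and 4.37 without TGFB1 replicate 3. OSM libraries, at 4.87, 6.52, 6.67 and 5.77 CPM, also lay below the unstimulated ones without passing (log2 fold change -1.63 ± 0.73 SE, adjusted p = 0.26). IFNA libraries split into 39.1 and 43.5 CPM in replicates 1 and 2 and 7.15 and 8.72 CPM in replicates 3 and 4.

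LTBR, the lymphotoxin beta receptor, was among the steadiest members in group means (7.25 to 12.3 CPM). Its log2 fold changes ran from -0.22 to 0.51 (SE 0.50 to 0.52, lowest adjusted p 0.606). Single libraries spread more widely, from 1.47 to 17.2 CPM after TGFB1 and from 3.53 to 23.3 CPM after TNF. LTBR shares 422 exonic bases with SCNN1A on the opposite strand. The divergent transcript TNFRSF10A-DT ranged from 4.08 CPM after OSM to 10.6 CPM after IFNA in group means (lowest adjusted p 0.484) and shares 266 exonic bases with TNFRSF10A.

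The remaining receptors, with the antisense and readthrough genes, were below the limits of the test. TNFRSF4, TNFRSF17 and TNFRSF18 were at 0 in all libraries, as was RANK. TNFRSF6B, TNFRSF8, TNFRSF13B, TNFRSF25, TNFRSF10A-AS1, TNFRSF14-AS1 and TNFSF12-TNFSF13 never exceeded 3 counts. CD40 exceeded 3 counts in 1 IFNG and 1 TNF library, TNFRSF9 in 1 IFNA and 1 TNF library, TNFRSF13C in 1 IL17A library and TNFRSF10C in 5 groups, each with at most 6 counts. At this depth, absence of these transcripts cannot be told from a low level.

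TNFRSF1B and TNFRSF14 were the other receptors below the test with more than 10 counts in a library. TNFRSF14, also called HVEM, is the receptor of LIGHT (TNFSF14). It held 17, 1, 5 and 12 counts after IFNG against 0, 0, 1 and 0 in unstimulated cells. In an alternative fit of 23518 genes without a filter on low counts its adjusted p after IFNG was 0.0426. TNFRSF14 shares 826 exonic bases with TNFRSF14-AS1, which held at most 1 count. TNFRSF1B, the second TNF receptor, held 5, 12, 5 and 15 counts (rounded) after IFNG and 4, 2, 5 and 4 in unstimulated cells, and its adjusted p in that fit was 0.56.

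Direct comparisons between cytokines were made for 4 pairs. TNF against IL1B called 0 of 14 members (background 1.15%; 2 at an unadjusted p under 0.05), and DESeq2 called 1, FAS. IFNA against IFNG called 2, FAS and TNFSF13B (background 9.39%, 4.93% up), both higher after IFNA. TNF against IFNG called 3 members (background 8.01%, 3.5% up and 4.51% down), with TNFRSF10D higher and TNFSF10 and TNFSF13B lower after TNF. Of these, TNFSF10 entered the test through the interferon groups, in which it was high. IL13 against TGFB1 called 4 (background 12.4%, 6.39% up and 6.05% down), with TNFRSF19 higher and TNFRSF10D, TNFRSF12A and TNFSF13B lower after IL13. No member passed against unstimulated cells after IL13.

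The superfamily genes with other symbols added little. Of 11 (TNF, LTA, CD40LG, FASLG, CD70, CD27, EDA, EDAR, EDA2R, NGFR, RELT), EDA2R, the receptor of ectodysplasin A2, was the 1 gene tested, and it did not pass after any cytokine. Its largest log2 fold change was -0.92 ± 0.46 SE after OSM (adjusted p = 0.331). TNF held 4 counts in 1 TGFB1 library and 0 in every other, the TNF-stimulated libraries included.

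Downstream of the receptors, 22 of 29 receptor-proximal signalling genes were tested. After TNF, 7 rose and 0 fell (TRAF3, BIRC2, BIRC3, CFLAR, CYLD, TNFAIP3, NFKBIA), beside 5.37% of all genes up and 11.5% called in either direction. The median log2 fold change of the list was 0.85 beside -0.02 over all genes. CYLD lost its call without any 1 of unstimulated replicates 2, 3 and 4 or TNF replicates 3 and 4 (adjusted p from 0.0587 to 0.154). After IL1B, 5 of these rose and 0 fell (BIRC2, BIRC3, CFLAR, TNFAIP3, NFKBIA), beside 3.46% up and 7.38% in either direction. The list median after IL1B was 0.38 beside -0.01. TNFAIP3, counted after both TNF and IL1B, entered the test through these groups, in which it was high.

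The median log2 fold change of the list was 0.83 after IFNA and 0.55 after IFNG, beside -0.01 over all genes for each. CFLAR is an inhibitor of caspase-8 activation, and NFKBIA is the inhibitor that retains NF-kappaB in the cytoplasm. Both rose after IFNA (background 4.99% up) and IFNG (5.52% up) too, and NFKBIA also after IL17A (0.599% up). The NFKBIA calls after these 3 cytokines were lost when single libraries were left out. These were unstimulated replicates 1 and 2 for each, with IFNA replicate 3, IFNG replicates 1, 3 and 4 and IL17A replicates 2, 3 and 4 for the cytokine named (adjusted p from 0.0512 to 0.199). MAP3K7, the kinase TAK1, fell after TGFB1 (log2 fold change -0.86 ± 0.24 SE, adjusted p = 0.02, background 3.08% down), and was lost without any 1 of unstimulated replicates 2 and 3 or TGFB1 replicates 3 and 4 (adjusted p from 0.0517 to 0.0994). None of the 22 passed after IL6, IL13, IL22 or OSM with edgeR, where 2, 2, 3 and 4 had an unadjusted p under 0.05, and DESeq2 called 0, 0, 0 and 1 (BIRC3).

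BIRC3, an inhibitor of apoptosis recruited to TNF receptors, had the largest change of the list. Unstimulated libraries held 2.45, 1.46, 0.704 and 23.9 CPM, with replicate 4 far above the rest. After TNF the libraries held 724, 948, 712 and 1038 CPM, and after IL1B 244, 238, 351 and 347 CPM. The log2 fold change was 6.92 ± 0.61 SE after TNF (adjusted p = 8.72e-12) and 5.39 ± 0.59 SE after IL1B. In an alternative chosen after seeing the data, without unstimulated replicate 4, these values were 8.97 and 7.43.

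TNFAIP3, the ubiquitin-editing inhibitor A20, held 1, 0, 6 and 0 counts in unstimulated libraries. After TNF it reached 62.8, 34.5, 45.8 and 65.4 CPM (log2 fold change 5.42 ± 0.85 SE, adjusted p = 9.08e-06). Without unstimulated replicate 3 the other unstimulated libraries held at most 1 count, so no fold is given, and the call held (adjusted p = 2.28e-06). TNIP1, a partner of A20, held 7, 0, 9 and 0 counts in unstimulated libraries and at most 1 after OSM, and did not pass there (adjusted p = 0.366).

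BIRC2, BIRC3, NFKBIA and TNFAIP3 were higher after TNF than after IFNG in the direct comparison (background 3.5% up, 4.51% down). TRAF3 and NFKB2 were also called higher and RBCK1 lower. TRAF3 was lost without any 1 of IFNG replicates 1, 2 and 3 or TNF replicates 2, 3 and 4, NFKB2 without any 1 of the 8 libraries, and RBCK1 without IFNG replicate 3 or TNF replicate 1 or 4 (adjusted p from 0.0502 to 0.161). IL13 against TGFB1 called TRAF3 and TNFAIP3, both lower after IL13 (background 12.4%, 6.05% down). Leaving out 1 replicate gave 0 to 2 calls there, and TNFAIP3 held 0 counts in every IL13 library.

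**Figure D4:**
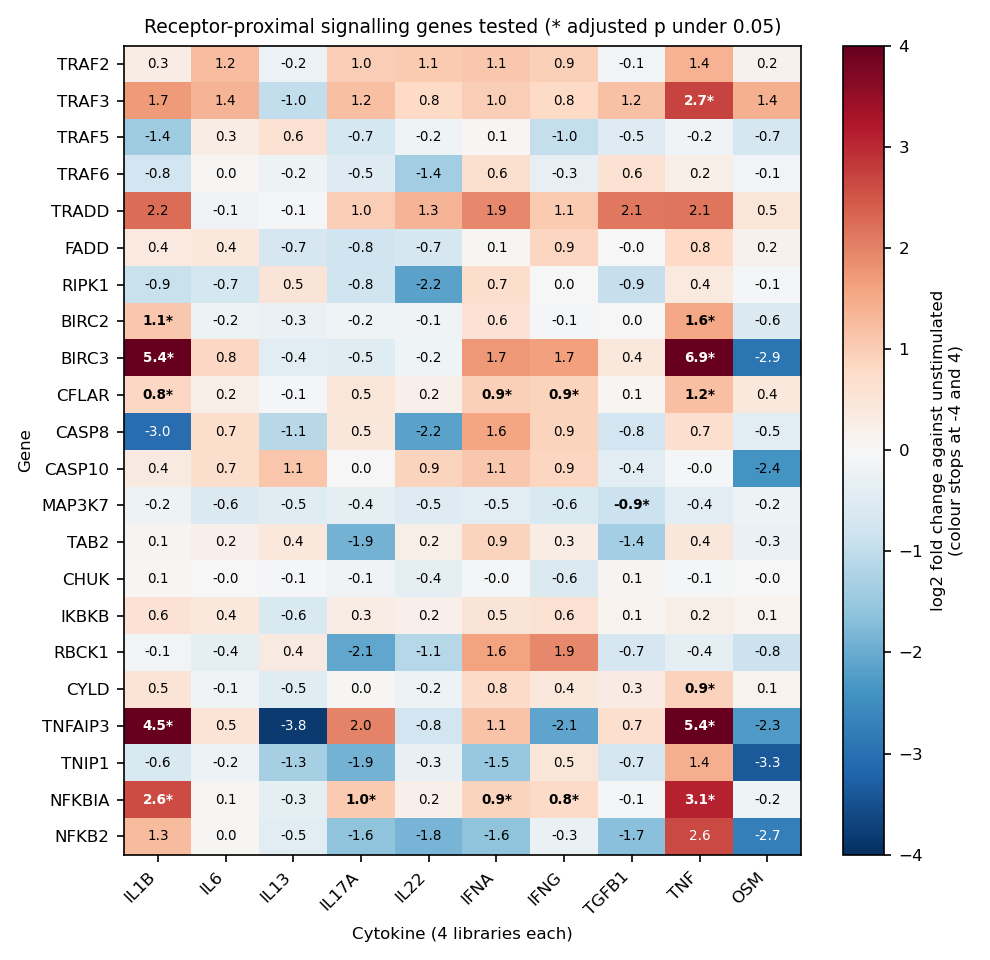
Fitted log2 fold change against unstimulated cells for the 22 tested receptor-proximal signalling genes (rows) and 10 cytokines (columns), with an asterisk where the adjusted p was under 0.05. The TNF column holds 7 asterisks and the IL1B column 5, with BIRC3 and TNFAIP3 darkest in both.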

How the data were processed

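The authors quantified the reads with kallisto 0.48.0 after quality checks with FastQC 0.11.9 and MultiQC 1.14, per the labels and methods, and deposited estimated counts per gene symbol that are not scaled for depth. The submitters' notes name hg38. The transcript release, the step from transcripts to genes and the strand setting are not given in the sources used here. Of the symbols, 99.23% were found in GENCODE 44, which gave positions, lengths and exon overlaps. Estimated counts were rounded, 9513 genes were kept by filterByExpr over the 11 groups, and TMM factors were applied. One edgeR 4.0.16 quasi-likelihood fit (R 4.3.3) over all 44 libraries gave every test. Alternatives used DESeq2 1.42.0, other filters and scaling, a replicate term, and each replicate left out. For the signalling list, DESeq2 and the left-out replicates were added after seeing the data. Fold changes against groups of at most 3 counts per library use 3 counts per library as the limit, for counting error only. Members, lists and tests were chosen with earlier results of these data known. Named were all members that passed against unstimulated cells (the 8 with values per library), the other members by range, and the 3 largest changes per list, without the fitted fold where a group was at the limit. Files held no authors' comparisons. The labels state no pairing of libraries by replicate number, and the main fit used none.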

Additional observations from a re-analysis of the deposited data

Results flagged for a closer look

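For the 8 members that passed a test, 10 of 88 groups of 4 held a library far from the other 3 by Dixon's criterion. Chance gives about 1 in 20 (4.4 of 88) for continuous, normally distributed values. A group with counts in 1 library and 0 in the other 3 is flagged by construction, so the 10 are no measure of excess over chance. FAS was at 310 CPM in IFNA replicate 4 against 247 to 253 CPM in the others. TNFRSF10D was at 67.8 CPM in TGFB1 replicate 1 against 39.9 to 41.5 CPM. TNFRSF12A was at 64.1 CPM in unstimulated replicate 1 against 22.5 to 26.0 CPM. TNFRSF19 was at 9.07 CPM in TGFB1 replicate 3 against 0 to 1.47 CPM. TNFSF15 was at 12.1 CPM in IL17A replicate 4 against 0 to 1.39 CPM, and at 12.1 CPM in IL1B replicate 3 against 0.505 to 1.95 CPM. The remaining 4 were libraries of at most 4 counts beside 3 libraries at 0, namely TNFSF15 in unstimulated replicate 3 (0.704 CPM) and TNFSF10 in IL13 replicate 1 (1.33 CPM), IL6 replicate 4 (2.42 CPM) and unstimulated replicate 1 (0.49 CPM).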

How the results depend on the processing

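The 24 named member results kept their direction in all 334 alternatives tried and lost the threshold in 34; 16 never lost it, TNFSF10, TNFSF13B and TNFRSF11B against unstimulated cells among them. Counts of members moved in the following settings, where the cause was not tested unless stated. Shares of all genes called were not taken for the alternative fits, so their counts cannot be set against a background. With all genes with any count they were 2 after IL1B, 1 after IL17A, 6 after IFNG, 4 after TGFB1 and 4 for IFNA against IFNG. By construction fewer passed an absolute log2 fold change above 1.5 (0 after IL1B, 1 after TNF, 0 after OSM, 1 for IFNA against IFNG) or above 1 (1 for IFNA against IFNG). With only the 8 libraries compared they were 0 after TGFB1, 2 after OSM and 1 for TNF against IL1B, and with DESeq2 6 after IFNG, 2 after OSM and 1 for TNF against IL1B. Leaving out 1 replicate gave 1 to 2 after IL1B, 3 to 5 after IFNG, 0 to 2 after TGFB1, 1 to 2 after OSM, 1 to 3 for IFNA against IFNG and 2 to 4 for IL13 against TGFB1. Counts of signalling genes, tried after seeing the data, were 2 after IL17A and 1 after OSM with DESeq2. Leaving out 1 replicate they were 0 to 2 after IL17A, 1 to 3 after IFNA, 1 to 4 after IFNG, 0 to 1 after TGFB1, 6 to 8 after TNF, 0 to 1 for IFNA against IFNG, 4 to 6 for TNF against IFNG and 0 to 2 for IL13 against TGFB1. Libraries share a replicate number without a stated link. Same-numbered libraries correlated at a median r of 0.00297 to 0.0257, and libraries of other numbers and groups at -0.0069. Single same-numbered pairs ran from -0.0857 to 0.281 for replicate 1, -0.166 to 0.207 for 2, -0.0865 to 0.13 for 3 and -0.187 to 0.191 for 4. Of 55 pairs each, 10, 3, 2 and 5 lay over 0.1. For replicates 1 to 4, 8, 3, 4 and 7 of 11 libraries were closest to their own number. The number of such matches without any link was not worked out. Whether the numbers mark a link between libraries is not known. A fit with the replicate block gave 0 after TGFB1 (TNFRSF19, log2 fold change -2.51, adjusted p = 0.0504) and changed no other named call. TNFSF15 after IFNA and TNFSF13B for IL13 against TGFB1 were too low to be tested in the 8 libraries alone. Depth limits the 26 untested members, 24 of which never exceeded 10 counts.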

Other observations

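In 6 of 11 groups (unstimulated, IL6, IFNA, IFNG, TGFB1, TNF), both TNFRSF11B libraries of replicates 1 and 2 lay below both of replicates 3 and 4, and in 0 groups above them. This split was noticed in the values, was the most one-sided of the 8 members that passed, and was not tested. The share over all genes was not taken. Groups below and above were 4 and 1 for TNFSF13B, 3 and 0 for TNFSF10, 3 and 1 for TNFSF15, and 3 and 2 for FAS. They were 2 and 2 for TNFRSF10D, 3 and 4 for TNFRSF12A and 2 and 4 for TNFRSF19.

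In IFNG replicates 2 and 3, TNFRSF10D and TNFRSF19 both held 0 and 1 counts, while the libraries held 3572 and 5571 counts of TNFRSF11B. TNFRSF10D held 15 and 34 counts in IFNG replicates 1 and 4, and TNFRSF19 held 29 and 7.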
